A study of Mus musculus with 17 samples.

Results

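The 33 genes described here are known to be imprinted in the mouse and were chosen by name, with earlier results of these data known. Each was found on 1 row among the 54532 genes of the table deposited by the authors, whose values are TPM (transcript abundance per gene length, scaled to the same total in each library). The cells were R1/E mouse embryonic stem cells (mESCs), an established cell line. Unmodified cells and *Usb1* knockout cells carrying a frameshift made with CRISPR/Cas9 were profiled by bulk RNA-seq under self-renewal culture without retinoic acid (RA), called day 0, and after 1 and 3 days of RA. There were 2 biological replicates of wild-type cells at day 0 and 3 in each of the other groups, which were wild-type cells at day 1 and at day 3 and *Usb1* knockout cells at day 0, day 1 and day 3. The study asked what *Usb1*, which encodes an exonuclease that trims the 3′ end of U6 snRNA, does in mESCs. All knockout libraries came from a single line, KO-1, so knockout and clone cannot be told apart. The RA dose is not given in the sources used here.

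Imprinted genes are expressed mainly from the allele inherited from the mother or from that inherited from the father. Methylation laid down on imprinting control regions in the germ line marks the parental allele, and in early embryos and mESCs the zinc finger protein ZFP57 with its partner TRIM28 protects this methylation. Many imprinted genes act in fetal growth, placenta and brain. Total RNA levels, as measured here, do not tell which parental allele was transcribed. In bulk samples, fewer cells of a type and less RNA per cell cannot be told apart.

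Reads on genes, recovered from the TPM, ranged from 15404379 to 17300186 over the 17 libraries. Wild-type replicate 1 at day 0 stood apart, with 239 genes of 1 read and 17090 genes above 0, against 1352 and 22314 in wild-type replicate 2. Replicate 1 of the *Usb1* knockout at day 3 had 1224 genes of 1 read, and the remaining libraries had 2150 to 2467. Counts of called imprinted genes are given with and without these libraries. *Usb1* itself was at 32.0 to 56.9 TPM in the wild-type libraries and at 14.7 to 21.4 TPM in those of the knockout line. The Y-linked genes *Eif2s3y* and *Ddx3y*, at 50.1 to 85.6 TPM in every wild-type library, were listed at 0 in each *Usb1* knockout library, a further difference between the lines. *Pou5f1*, a defining transcription factor of mESCs, averaged 1382 ± 15.4 TPM (wild type; SD, n = 2) and 1390.3 ± 97.7 TPM (knockout; SD, n = 3) without RA.

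Differences between groups are log2 fold changes on the log2(TPM + 1) scale (log2FC), which understates the change of genes of low TPM. They were estimated with limma over the 21871 genes of at least 1 TPM in at least 2 libraries. Called genes passed an adjusted p of 0.05 (Benjamini-Hochberg over all genes tested) and changed at least 2-fold. Throughout, at least or under 2-fold refers to the log2(TPM + 1) scale. Of the 33 imprinted genes, 32 entered the fit. *Kcnq1*, a potassium channel gene, did not and was at 0 to 0.915 TPM in all libraries. *Igf2*, *H19*, *Airn*, *Usp29* and *Dcn* reached 1 TPM at day 3 alone, so these 5 genes entered the fit through the day at which they were high.

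At day 3 of RA, 18 of the 32 imprinted genes in the fit were called higher than without RA in wild-type cells and 21 in knockout cells, counts that include the 5 genes that entered the fit through day 3. Wild-type cells had 6 of 32 called higher and 3 lower at day 1, where 9.99% and 3.88% of all genes tested were called higher and lower. Knockout cells had 3 called higher and 3 lower at day 1, against 4.07% and 2.87% of all genes. At day 1, voom on recovered reads called 8 higher and 4 lower in wild-type cells, with 3371 and 1035 over all genes. In knockout cells it called 6 and 3, with 1563 and 754 over all genes. At an adjusted p under 0.05 without the 2-fold minimum, day 1 had 18 imprinted genes in wild-type cells, against 38% of all genes, and 13 in knockout cells, against 27.7%. After 3 days, 18 were called higher and 1 lower in wild-type cells, against 16.1% and 9.68% of all genes. The knockout line had 21 called higher and 0 lower by limma after 3 days, against 13.8% and 8.04% of all genes. At an unadjusted p under 0.05 its counts were 25 higher and 2 lower, for which the share of all genes is not given here. In the same line voom on recovered reads called 20 higher and 1 lower, with 3471 and 2462 over all genes. Without the 5 genes that reached 1 TPM at day 3 alone, 13 of 27 were higher in wild-type cells and 16 of 27 in knockout cells. Both days were compared with the same day 0 libraries, while the genotypes share no library.

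Leaving out wild-type replicate 1 at day 0 gave 5 called higher and 4 lower at day 1 and 18 higher and 2 lower at day 3, while the calls over all genes went from 2185 higher and 848 lower to 1643 and 893 at day 1 and from 3522 and 2118 to 3139 and 2292 at day 3. Leaving out knockout replicate 1 at day 3 gave 22 higher and 1 lower, with 3267 and 1548 over all genes in place of 3023 and 1759. With libraries scaled to an equal median, the calls over all genes at day 1 in wild-type cells went from 2185 higher and 848 lower to 1676 and 1201. At day 3 they went from 3522 and 2118 to 2948 and 2737 in wild-type cells, and from 3023 and 1759 to 2268 and 2795 in knockout cells. The imprinted genes then had 5 higher and 3 lower in the first, 18 and 1 in the second and 20 and 1 in the third.

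The median log2FC of the 32 genes was 1.46 in wild-type and 1.77 in knockout cells at day 3, and 0.10 and 0.03 over all genes tested. Without the 5 genes that reached 1 TPM at day 3 alone, it was 0.996 and 1.43. At day 1 it was 0.10 and 0.02, and 0.17 and 0.02 over all genes. Summed over the 33 genes, the level rose from 1500.5 ± 40.6 TPM (SD, n = 2) without RA to 1723 ± 67.2 TPM at day 1 and 3989 ± 451 TPM at day 3 (SD, n = 3 each) in wild-type cells. In knockout cells the sum was 1421 ± 63.6, then 1508 ± 58.7, then 5337 ± 568 TPM (SD, n = 3 each). Of the 19 paternally expressed genes in the fit, 11 were called higher at day 3 in wild-type and 12 in knockout cells. Of the 12 maternally expressed genes, 6 and 8 were called higher, and 1 and 0 lower, where 16.1% and 13.8% of all genes were called higher. Without the genes that reached 1 TPM at day 3 alone, 8 and 9 of 16 paternally and 4 and 6 of 10 maternally expressed genes were called higher. *Gnas*, whose imprinting depends on the isoform, was called higher in both.

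All 18 genes called higher in wild-type cells at day 3 were also among the 21 called higher in knockout cells. These were *Igf2*, *H19*, *Ascl2*, *Igf2r*, *Airn*, *Dlk1*, *Peg3*, *Usp29*, *Zim1*, *Peg10*, *Sgce*, *Mest*, *Grb10*, *Plagl1*, *Ndn*, *Magel2*, *Gnas* and *Dcn*. How far the calls of all genes overlap between the genotypes is not given here, so the overlap is not read as particular to imprinted genes. *Cdkn1c*, *Rian* and *Slc38a4* were called higher in knockout cells and not in wild-type cells, and *Phlda2* was called lower in wild-type cells and not in knockout cells. Whether these 4 responses differed between the genotypes is a separate test, given further on. At day 1 *Cdkn1c*, *Dlk1* and *Ndn* were called higher and *Meg3*, *Rian* and *Mirg* lower in each genotype, while *Ascl2*, *Magel2* and *Plagl1* passed as higher in wild-type cells. The wild-type calls of *Ascl2*, at both days, were lost without wild-type replicate 1 at day 0 and when the libraries of the comparison were fitted alone. The call of *Plagl1* was lost without wild-type replicate 1 at day 0 (log2FC 0.87). That of *Magel2* was lost without wild-type replicate 1 at day 1 (0.92), with equal median scaling (0.95) and with quantile normalization (0.49).

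**Figure D1:**
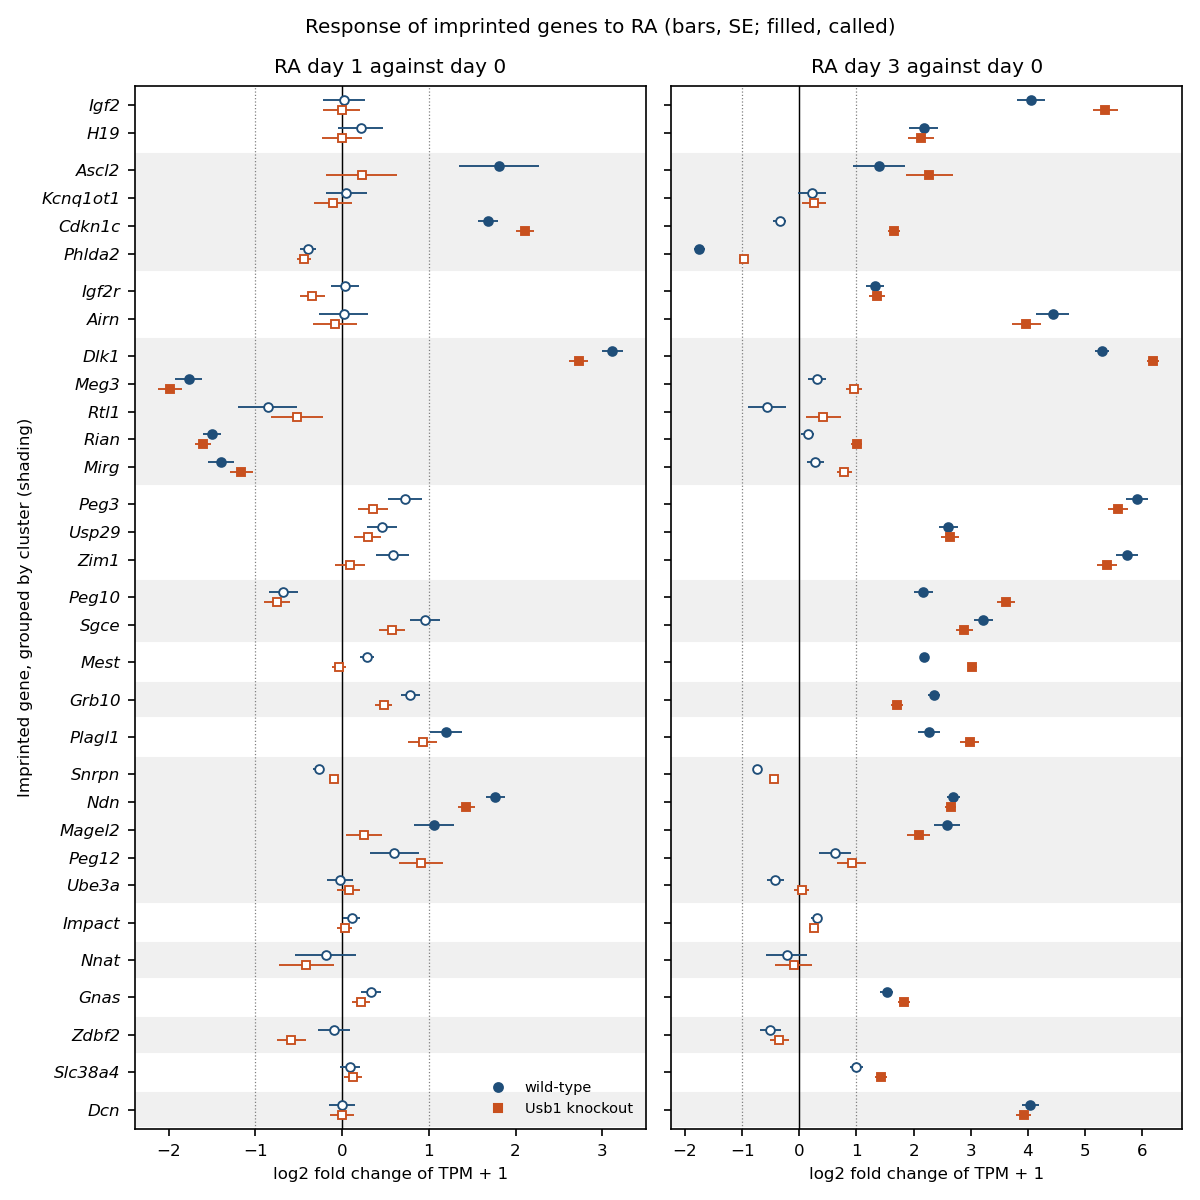
Log2 fold change of TPM + 1 (x axis) of the 32 imprinted genes in the fit (y axis, shading by cluster) at day 1 (left) and day 3 (right) against day 0, in wild-type (blue circles) and *Usb1* knockout cells (orange squares). Bars are SE, filled points are called genes and dotted lines mark a 2-fold change. At day 1 *Meg3*, *Rian* and *Mirg* lie left of −1, and at day 3 most filled points lie right of 1, up to 6.18 for *Dlk1* in knockout cells.

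In levels per gene length, *Slc38a4* had the highest mean TPM over all libraries, followed by *Peg10*, *Mest*, *Peg3* and *Grb10*. The order changed with the day. Wild-type cells without RA had most of *Slc38a4* (325 ± 27.5 TPM, SD, n = 2) and *Phlda2* (268 ± 18.3 TPM, SD, n = 2), whose libraries did not overlap. After 3 days the highest were *Peg3* (742 ± 145 TPM, SD, n = 3), *Slc38a4* (649.6 ± 52 TPM) and *Peg10* (589.8 ± 120.4 TPM), with overlapping libraries. In the knockout line *Peg10* (1059 ± 199 TPM, SD, n = 3) and *Slc38a4* (902 ± 58.3 TPM) led after 3 days, again with overlapping libraries.

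*Peg3* (ENSMUSG00000002265; GRCm38 chromosome 7, 6703892 to 6730431) encodes a large zinc finger protein expressed from the paternal allele. *Usp29* (ENSMUSG00000051527; GRCm38 chromosome 7, 6730578 to 6967219), a paternally expressed gene for a ubiquitin-specific protease, starts 147 bases away and is read in the opposite direction. The stretch between their annotated starts is shown because both genes rose at day 3. It was taken from the RefSeq promoter table (GRCm38.p6, chr7:6730432-6730577, plus strand) and is in lower case throughout, as it holds no match to the motifs described below.

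Peg3-Usp29: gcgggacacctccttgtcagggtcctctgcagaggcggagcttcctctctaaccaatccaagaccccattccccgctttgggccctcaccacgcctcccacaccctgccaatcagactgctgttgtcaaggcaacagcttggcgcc

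In the wild-type libraries, here and below in the order of the replicates, *Peg3* was at 9.77 and 12.9 TPM without RA, 23.2, 16.4 and 18.8 TPM after 1 day and 689, 631 and 907 TPM after 3 days. In the knockout libraries it was at 12.7, 13.2 and 13.4 TPM without RA, 18.8, 18.5 and 14.2 TPM after 1 day and 527, 736 and 778 TPM after 3 days. Every library at day 3 lay far above every library of day 0 and day 1, and mean TPM was 65.4 times that without RA in wild-type and 52 times in knockout cells. Its log2FC at day 3 was 5.91 ± 0.20 (SE; limma, adjusted p = 5.58e-12) and 5.58 ± 0.17 (SE; limma, adjusted p = 2.70e-12) respectively. *Zim1*, a maternally expressed zinc finger gene of the same cluster, was at 1.19 and 0.977 TPM without RA and 104, 96.6 and 131 TPM after 3 days in wild-type libraries and at 1.53, 1.17 and 1.48 TPM without RA and 74.7, 107 and 119.8 TPM after 3 days in knockout libraries. With log2FC of 5.73 and 5.38 it moved with *Peg3*, although the opposite parental allele is expressed. *Usp29* went from 9 and 10 reads to 491, 418 and 528 reads in wild-type libraries, with log2FC of 2.61 and, in knockout cells, 2.63. At day 1, *Peg3* and *Zim1* had an adjusted p under 0.05 in wild-type cells with log2FC of 0.73 and 0.58, under 2-fold.

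*Igf2* (ENSMUSG00000048583; GRCm38 chromosome 7, 142650766 to 142666816), the gene for a fetal growth factor expressed from the paternal allele, and *H19*, a maternally expressed noncoding RNA that shares its enhancers, both rose at day 3. *Igf2* was at 0 and 0.316 TPM without RA, 0.192, 0.186 and 0.115 TPM after 1 day and 16.5, 15.1 and 23.5 TPM after 3 days in wild-type libraries. The knockout libraries had 0.0379, 0.183 and 0 TPM without RA, 0.0371, 0.177 and 0 TPM after 1 day and 31.3, 52.5 and 48 TPM after 3 days. The rise came after day 1, and at day 3 each knockout library was above each wild-type library. Between day 0 and day 3 the log2FC was 4.06 ± 0.24 (SE; limma, adjusted p = 2.57e-09) in wild-type cells, and 5.36 ± 0.21 (SE; limma, adjusted p = 3.34e-11) in knockout cells. Without RA the gene had 0 to 8 reads in a library, so the size of these changes depends on the pseudocount of 1. The exons of *Igf2* share 62.8% of their length with *Gm49394* on the same strand, and how such reads were divided is not given in the sources used here. *H19* had at most 5 reads in any library before day 3, then 50, 25 and 47 reads in the wild-type and 35, 44 and 44 reads in the knockout libraries. With 3.66 ± 1.31 and 3.54 ± 0.696 TPM (SD, n = 3 each), it stayed low and the genotypes overlapped.

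The genes of the *Kcnq1* cluster moved in different directions. *Cdkn1c* (ENSMUSG00000037664; GRCm38 chromosome 7, 143458339 to 143461050), which encodes the cyclin-dependent kinase inhibitor p57, was at 92.5 and 116 TPM without RA, 326, 334 and 345 TPM after 1 day and 78.3, 85.7 and 81 TPM after 3 days in wild-type libraries. The knockout libraries had 36, 45.5 and 46.5 TPM without RA, 174, 185 and 198 TPM after 1 day and 149.9, 124 and 134 TPM after 3 days. It peaked at day 1 in each genotype, and by day 3 it was below its day 0 level in wild-type and above it in knockout cells, with no overlap between days. From day 0 to day 1 the log2FC was 1.68 ± 0.11 (SE; limma, adjusted p = 5.53e-08) in wild-type and 2.10 ± 0.10 (SE; limma, adjusted p = 1.94e-09) in knockout cells. To day 3 it was −0.34 ± 0.11 (SE; limma, adjusted p = 0.0217) and 1.65 ± 0.10 (SE; limma, adjusted p = 4.05e-09). *Gm44732* covers 30.7% of its exons on the opposite strand, and since the counting is not stated to use strand, the reads of overlapping genes on opposite strands cannot be told apart.

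*Phlda2* (ENSMUSG00000010760; GRCm38 chromosome 7, 143501545 to 143503150), which restrains placental growth, was at 255 and 281 TPM without RA, 192, 218 and 202 TPM after 1 day and 76, 78.6 and 82.6 TPM after 3 days in wild-type libraries and at 279, 317 and 275 TPM without RA, 214, 206 and 223 TPM after 1 day and 167, 138 and 139 TPM after 3 days in knockout libraries. The day 3 libraries were the lowest in both genotypes, and those of the knockout lay above those of the wild type. Its log2FC at day 3 was −1.75 ± 0.09 (SE; limma, adjusted p = 5.13e-10) in wild-type cells and −0.97 ± 0.08 (SE; limma, adjusted p = 8.49e-08) in knockout cells, the latter under 2-fold. *Ascl2*, a transcription factor gene of the trophoblast, was at 0 and 4.31 TPM without RA, 5.82, 6.54 and 9.23 TPM after 1 day and 5.59, 5.21 and 4.43 TPM after 3 days in wild-type libraries and at 2.8, 4.39 and 3.34 TPM without RA, 4.7, 3.87 and 4.14 TPM after 1 day and 23.3, 19.5 and 19.3 TPM after 3 days in knockout libraries. The 0 comes from wild-type replicate 1, described above as standing apart. Without it *Ascl2* was not called in wild-type cells, with log2FC of 0.60 at day 1 and 0.19 at day 3. In knockout cells it rose by 2.27 ± 0.41 (SE; limma, adjusted p = 2.58e-04) at day 3, and the 3 libraries lay above all others. *Kcnq1ot1*, the paternally expressed noncoding RNA that silences the cluster, was at 0.51 to 1.72 TPM in all libraries and was called in no comparison.

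*Igf2r* (ENSMUSG00000023830; GRCm38 chromosome 17, 12682406 to 12769664), whose product clears IGF2 and which is known to be transcribed from both alleles in undifferentiated mESCs, rose at day 3 together with *Airn*, the paternally expressed noncoding RNA read from the other strand. *Igf2r* was at 66.8 and 73.7 TPM without RA and 177, 150.1 and 208 TPM after 3 days in wild-type libraries and at 69.4, 58.3 and 62.4 TPM without RA and 136, 181 and 176 TPM after 3 days in knockout libraries. *Airn* had at most 6 reads in any library before day 3, then reached 24.9, 18.3 and 32.2 TPM in the wild type, with 10.2, 20.2 and 21.5 TPM in the knockout. Its libraries at day 3 were above all earlier ones, and the genotypes overlapped. *Airn* starts within *Igf2r*, and as the counting is not stated to use strand, reads from the stretch they share cannot be assigned to either gene with certainty. For *Airn* the log2FC was 4.43 ± 0.28 (SE; limma, adjusted p = 6.61e-09) in wild-type cells and 3.97 ± 0.25 (SE; limma, adjusted p = 5.82e-09) in knockout cells, and for *Igf2r* 1.32 and 1.35.

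At the *Dlk1*-*Meg3* cluster, *Dlk1* rose at each step while the maternally expressed noncoding RNAs fell at day 1 and were higher again at day 3. *Dlk1* (ENSMUSG00000040856; GRCm38 chromosome 12, 109452823 to 109463336) encodes a Delta-like membrane protein and is read from the paternal allele. It was at 3.74 and 4.71 TPM without RA, 44.7, 43.2 and 44.5 TPM after 1 day and 216, 202 and 192 TPM after 3 days in wild-type libraries and at 2.49, 2.81 and 1.96 TPM without RA, 23, 19.8 and 21.8 TPM after 1 day and 259, 266 and 216 TPM after 3 days in knockout libraries. The days did not overlap in either genotype, and knockout libraries were below wild-type libraries at day 0 and day 1. At day 1 the log2FC was 3.12 ± 0.12 (SE; limma, adjusted p = 1.35e-10) in wild-type cells and 2.73 ± 0.11 (SE; limma, adjusted p = 2.23e-10) in knockout cells. By day 3 it had reached 5.29 and 6.18.

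*Meg3* (ENSMUSG00000021268; GRCm38 chromosome 12, 109541001 to 109571726), *Rian* and *Mirg* are noncoding RNAs read from the maternal allele in the same direction, and *Rian* and *Mirg* host many small nucleolar RNAs and microRNAs. The 250 bases before a RefSeq start of *Meg3* (GRCm38.p6, chr12:109540746-109540995, plus strand) are shown because this gene fell most of these RNAs. The capitals mark a match to the ZFP57 motif TGCCGC described below, in its complementary form GCGGCA.

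Meg3: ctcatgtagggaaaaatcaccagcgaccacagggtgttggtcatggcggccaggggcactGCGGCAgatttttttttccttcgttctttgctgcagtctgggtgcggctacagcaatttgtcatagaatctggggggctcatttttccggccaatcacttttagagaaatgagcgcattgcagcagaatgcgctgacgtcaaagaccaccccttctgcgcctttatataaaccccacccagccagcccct

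*Meg3* was at 41.6 and 53.2 TPM without RA, 13, 12.9 and 13.3 TPM after 1 day and 58.3, 54.1 and 64.1 TPM after 3 days in wild-type libraries. The knockout libraries had 30.5, 25.2 and 25.7 TPM without RA, 5.98, 6.89 and 5.53 TPM after 1 day and 41.9, 62.1 and 58.6 TPM after 3 days. All day 1 libraries were below all day 0 and day 3 libraries of their genotype. The log2FC at day 1 was −1.77 ± 0.15 (SE; limma, adjusted p = 6.89e-07) in wild-type cells and −1.98 ± 0.14 (SE; limma, adjusted p = 9.02e-08) in knockout cells. *Rian* was at 48.7 and 44.5 TPM without RA, 14.9, 16.1 and 16.5 TPM after 1 day and 51.3, 50.8 and 52.4 TPM after 3 days in wild-type libraries and at 29.7, 26.3 and 25.6 TPM without RA, 8.26, 8.26 and 8.2 TPM after 1 day and 48.5, 53.2 and 65.7 TPM after 3 days in knockout libraries. It had the same dip at day 1, with log2FC of −1.50 and −1.61, and *Mirg* had −1.39 and −1.16. Compared with day 0, day 3 gave 0.31 for *Meg3*, 0.14 for *Rian* and 0.28 for *Mirg* in wild-type cells, none with an adjusted p under 0.05. In knockout cells all 3 ended above day 0, *Meg3* by 0.96 ± 0.14 (SE; limma, adjusted p = 3.30e-05) and *Mirg* by 0.79 ± 0.13 (SE; limma, adjusted p = 1.41e-04), under 2-fold, with no overlap between the libraries. *Rian* was called there, at 1.003 ± 0.09 (SE; limma, adjusted p = 3.78e-07), a call at the 2-fold limit that was lost under 6 alternatives, among them leaving out knockout replicate 2 (0.98) or 3 (0.96) at day 0 or replicate 3 at day 3 (0.88). *Rtl1*, a paternally expressed gene derived from a retrotransposon, was at 0.234 to 3.8 TPM and was called in no comparison.

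From day 1 to day 3, a comparison added after the data were seen, 19 of 32 imprinted genes were called higher and 2 lower in wild-type cells, against 7.7% and 7.54% of all genes tested. In the knockout line 22 were called higher and 0 lower by limma, against 9.6% and 5.73% of all genes. Without the 5 genes that reached 1 TPM at day 3 alone, 14 of 27 were higher and 2 lower in wild-type cells, and 17 and 0 in the knockout. Equal median scaling turned the calls over all genes in the knockout from 2100 higher and 1253 lower to 1610 and 1772, and gave 21 imprinted genes higher and 0 lower. With the main scaling, 24 were higher and 3 lower there at an unadjusted p under 0.05. The share of all genes at that threshold is not given here. There, voom on recovered reads called 23 higher and 0 lower, with 2310 and 2005 over all genes. Without knockout replicate 1 at day 3, the count was 22 higher and 0 lower, with 2339 and 1122 over all genes. *Meg3* rose by 2.08 ± 0.14 (SE; limma, adjusted p = 1.49e-08) in wild-type and 2.94 ± 0.14 (SE; limma, adjusted p = 3.66e-10) in knockout cells. *Rian* rose by 1.64 and 2.61, and *Mirg* by 1.68 and 1.95. *Cdkn1c* and *Phlda2* were the genes called lower in wild-type cells, with log2FC of −2.02 and −1.36. In knockout cells they were at −0.45 and −0.53, under 2-fold.

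**Figure D2:**
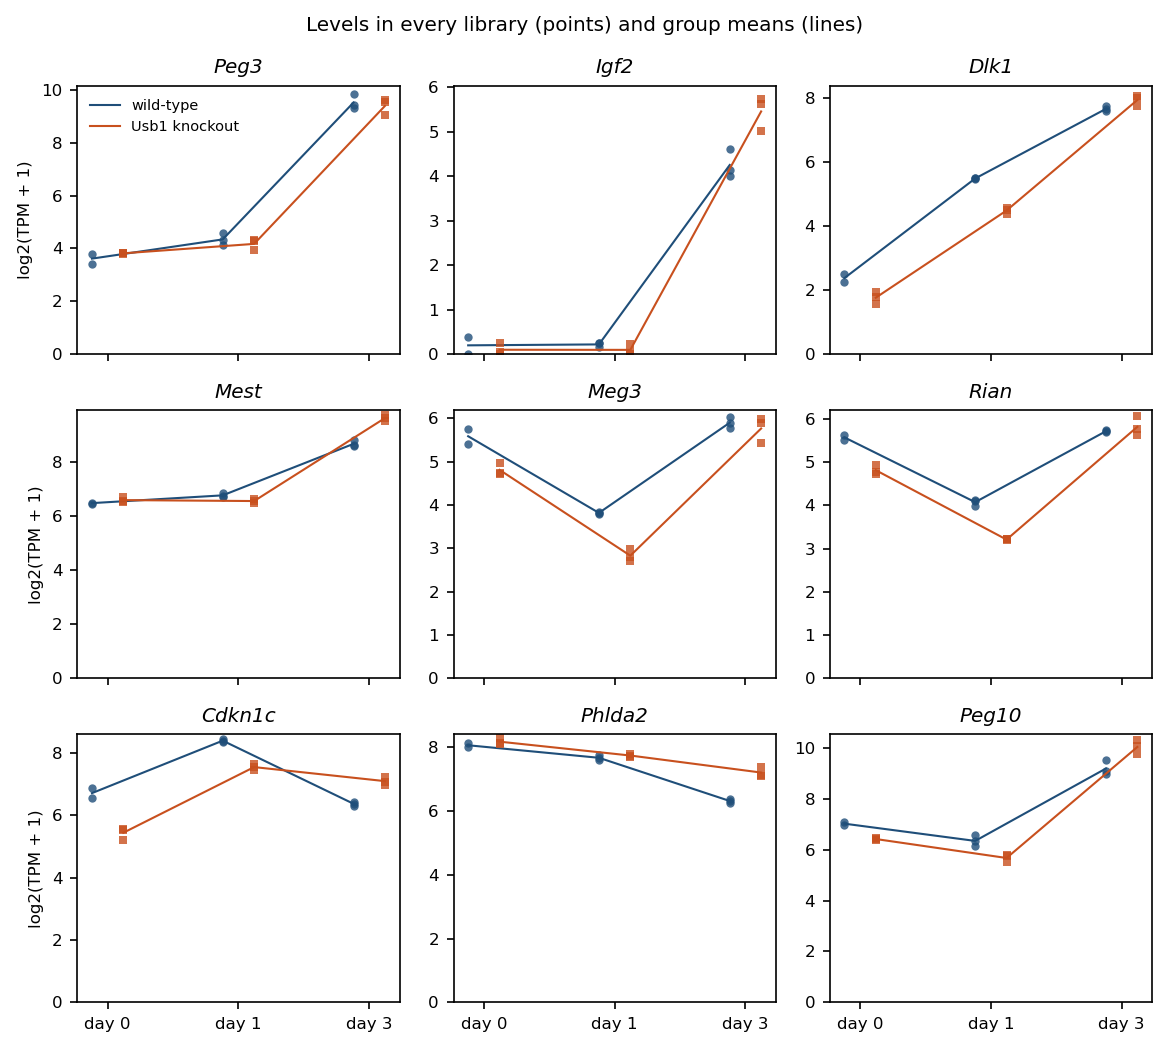
Level of 9 imprinted genes as log2(TPM + 1) (y axis) at day 0, 1 and 3 (x axis, evenly spaced) in wild-type (blue circles) and *Usb1* knockout libraries (orange squares). Points are libraries and lines join group means. *Peg3*, *Igf2*, *Mest* and *Peg10* rise after day 1, *Dlk1* rises from day 0, *Meg3* and *Rian* dip at day 1, *Cdkn1c* peaks at day 1 and *Phlda2* falls.

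*Peg10* (ENSMUSG00000092035; GRCm38 chromosome 6, 4747306 to 4760517), derived from a retrotransposon and needed for the placenta, and *Sgce*, the epsilon-sarcoglycan gene, are both paternally expressed and start 99 bases apart in opposite directions. *Peg10* was at 134 and 124 TPM without RA, 94.1, 69.4 and 78.9 TPM after 1 day and 543, 499.8 and 727 TPM after 3 days in wild-type libraries and at 85.9, 83 and 84.5 TPM without RA, 53.6, 52.3 and 44.6 TPM after 1 day and 856, 1068 and 1253 TPM after 3 days in knockout libraries. It was lowest at day 1 and highest at day 3, when the knockout libraries lay above the wild-type ones. At day 3 the log2FC was 2.17 ± 0.17 (SE; limma, adjusted p = 5.16e-08) in wild-type cells and 3.62 ± 0.15 (SE; limma, adjusted p = 5.03e-11) in knockout cells. The neighbours moved in opposite directions at day 1, *Peg10* by −0.68 and −0.74 and *Sgce* by 0.96 and 0.57 in wild-type and knockout cells. Each had an adjusted p under 0.05 and was under 2-fold on the log2(TPM + 1) scale. Mean TPM of *Sgce* at day 1 was 2.76 times that without RA in wild-type cells and 1.78 times in knockout cells. *Sgce* was at 1.28 and 1.13 TPM without RA and 21.9, 19 and 18 TPM after 3 days in wild-type libraries, with log2FC of 3.22 and, in knockout cells, 2.89.

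*Mest* (ENSMUSG00000051855; GRCm38 chromosome 6, 30723547 to 30748465), a paternally expressed gene for a hydrolase-like protein of mesoderm and growing tissues, rose at day 3. Its promoter is shown because it is a well known imprinting control region, and the 250 bases before a RefSeq start (GRCm38.p6, chr6:30737800-30738049, plus strand) hold 2 matches to the hexamer TGCCGC, the core of the ZFP57 motif. The capitals mark them in their complementary form, GCGGCA.

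Mest: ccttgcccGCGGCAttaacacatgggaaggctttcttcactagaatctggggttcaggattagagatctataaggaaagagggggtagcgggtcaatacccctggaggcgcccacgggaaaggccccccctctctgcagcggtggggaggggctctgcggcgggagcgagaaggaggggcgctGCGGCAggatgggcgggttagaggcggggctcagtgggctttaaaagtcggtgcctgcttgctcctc

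RefSeq promoter windows of 300 bases (250 before to 50 after the start) were found for 25 of the 33 genes, 41 windows in all. TGCCGC was searched on both strands and occurs in 10 of the 41 windows (24.4%) and in 11.6% of all 32851 windows of this length. The windows with a match belong to *Grb10*, *Igf2*, *Meg3*, *Mest*, *Nnat*, *Plagl1*, *Snrpn*, *Zdbf2* and *Zim1*. AGGTCA, the core element of retinoic acid receptors, was searched in the same way and occurs in 4 of the 41 windows (9.76%), those of *Airn*, *Igf2*, *Igf2r* and *Meg3*, and in 16.3% of all windows. Several windows belong to the same gene, and a match describes the letters only.

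*Mest* was at 88.7 and 86.8 TPM without RA, 113, 106 and 104 TPM after 1 day and 388, 382 and 445 TPM after 3 days in wild-type libraries and at 103, 92.7 and 89.5 TPM without RA, 98.1, 91.5 and 88.4 TPM after 1 day and 718, 778 and 856 TPM after 3 days in knockout libraries. At day 1 it had changed by 0.29 and −0.03, and at day 3 every knockout library was above every wild-type library. Its log2FC at day 3 was 2.19 ± 0.09 (SE; limma, adjusted p = 3.15e-11) in wild-type cells and 3.03 ± 0.08 (SE; limma, adjusted p = 3.11e-13) in knockout cells. *Copg2* covers 23.1% of its exons on the opposite strand. *Plagl1*, a paternally expressed zinc finger gene known to regulate other imprinted genes, was at 3.77 and 6.5 TPM without RA, 12.9, 11 and 14.4 TPM after 1 day and 26.6, 26.2 and 31.1 TPM after 3 days in wild-type libraries and at 7.29, 6.43 and 6.11 TPM without RA, 13.3, 15 and 12.2 TPM after 1 day and 48.1, 62.2 and 68.3 TPM after 3 days in knockout libraries. It was higher at each step, by 2.27 and 2.98 at day 3. *Grb10*, whose product inhibits insulin and IGF signalling and is expressed from the maternal allele in most tissues, was at 63.6 and 69.3 TPM without RA and 328, 316 and 395 TPM after 3 days in wild-type libraries and at 140.4, 123 and 137 TPM without RA and 392, 442 and 484 TPM after 3 days in knockout libraries. Each knockout library without RA was above each wild-type library without RA, and the log2FC at day 3 was 2.36 in wild-type and 1.71 in knockout cells.

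The genes of the *Snrpn*-*Ube3a* cluster, known from Prader-Willi and Angelman syndromes, did not move together. *Ndn*, the necdin gene, was at 12.5 and 8.8 TPM without RA, 39.3, 37.5 and 37.8 TPM after 1 day and 75.6, 79.4 and 66.1 TPM after 3 days in wild-type libraries and at 12.6, 11 and 12 TPM without RA, 32.6, 33.5 and 35.3 TPM after 1 day and 79.7, 80.0 and 79.2 TPM after 3 days in knockout libraries. It rose at each step with no overlap between days, by 2.69 ± 0.11 (SE; limma, adjusted p = 6.02e-11) in wild-type and 2.65 ± 0.10 (SE; limma, adjusted p = 1.84e-11) in knockout cells at day 3. Its neighbour *Magel2* rose by 2.58 and 2.09, to 8.24 ± 0.348 and 9.18 ± 2.56 TPM (SD, n = 3 each). *Snrpn*, which encodes a spliceosomal protein, was at 85 and 86.7 TPM without RA and 54.6, 52.3 and 47.2 TPM after 3 days in wild-type libraries, with log2FC of −0.73 ± 0.06 (SE; limma, adjusted p = 1.75e-07), and −0.45 in knockout cells, both under 2-fold. *Gm38393* covers 27.3% of the exons of *Snrpn* on the same strand, so reads may be split between them. *Snurf*, which covers 10.0%, was listed at 0 in every library. *Ube3a*, a ubiquitin ligase gene, had log2FC of −0.42 ± 0.15 (SE; limma, adjusted p = 0.0258) in wild-type cells at day 3 and 0.04 in knockout cells, where the adjusted p was above 0.05. *Peg12* was at 0.62 (limma, adjusted p = 0.0801) and 0.92 (limma, adjusted p = 0.00669).

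Among imprinted genes outside these clusters, *Dcn* went from no reads to clearly detected. Its product decorin is a collagen-binding proteoglycan abundant in fibroblasts. *Dcn* had 0 reads in every library of day 0 and day 1, and reached 16, 14.2 and 16.4 TPM in the wild type, with 14.5, 13.4 and 14.7 TPM in the knockout, at day 3. Taking 3 reads per library as the limit that 0 reads allow under counting error alone, mean *Dcn* at day 3 was at least 129-fold higher than at day 0 within knockout cells and at least 139-fold within wild-type cells, where the limit includes replicate 1. *Gnas*, the gene of a stimulatory G protein subunit, was at 9.19 and 10.0 TPM without RA and 27, 28.5 and 33.7 TPM after 3 days in wild-type libraries and rose by 1.53, and by 1.83 in knockout cells. *Slc38a4*, an amino acid transporter gene, was at 345 and 306 TPM without RA and 684, 589.7 and 675 TPM after 3 days in wild-type libraries and at 383, 318 and 305 TPM without RA and 837, 949.8 and 919 TPM after 3 days in knockout libraries. Its log2FC was 0.996 in wild-type cells, just under the 2-fold minimum, and 1.43 ± 0.10 (SE; limma, adjusted p = 2.61e-08) in knockout cells. *Impact*, a regulator of translation, was at 0.30 and 0.26, both with an adjusted p under 0.05 and under 2-fold. *Zdbf2* was at −0.51 in wild-type cells at day 3 (limma, adjusted p = 0.0305), and *Nnat* was called in no comparison.

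Imprinted genes were also compared between the genotypes at each day. Without RA, 0 of 32 were called higher and 1 lower in knockout cells by limma, against 1.6% and 1.45% of all genes tested. Leaving out wild-type replicate 1 also gave 0 and 1, against 0.553% and 1.2% of all genes, whereas leaving out wild-type replicate 2 gave 3 calls in all. At day 1, 0 were called higher and 1 lower, against 0.462% and 1.76%. By day 3, 3 were called higher and 0 lower, against 0.521% and 0.773%. Without the 5 genes that reached 1 TPM at day 3 alone, *Igf2* among them, 2 of 27 were higher and 0 lower at day 3. At an unadjusted p under 0.05 there were 2 higher and 9 lower at day 0, 1 and 9 at day 1, and 10 and 0 at day 3. The share of all genes at an unadjusted p is not given here, so these counts are not read as particular to imprinted genes. At an adjusted p under 0.05 without the 2-fold minimum, there were 1 higher and 7 lower, 1 and 8, and 8 and 0, where 11.9%, 17.3% and 7.52% of all genes passed in either direction. Equal median scaling moved the calls over all genes from 350 higher and 318 lower to 531 and 259 at day 0 and from 101 and 384 to 170 and 198 at day 1, and called 1 imprinted gene higher and 1 lower at day 0 and 0 and 0 at day 1. The voom fit called 1 higher and 1 lower at day 0, 0 and 0 at day 1, and 3 and 0 at day 3. Over all genes it called 845 higher and 436 lower, 168 and 495, and 201 and 221. The median log2FC was −0.09, −0.21 and 0.08 at day 0, 1 and 3, and 0, −0.13 and 0 over all genes.

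*Cdkn1c* was the gene called at day 0, at −1.27 ± 0.11 (SE; limma, adjusted p = 1.35e-05), and its call was lost when the 5 libraries of the comparison were fitted alone (limma, adjusted p = 0.0682). At day 1 it was at −0.85 (limma, adjusted p = 7.97e-05). *Dlk1* was the gene called at day 1, at −1.002 ± 0.11 (SE; limma, adjusted p = 2.37e-05). This lies at the 2-fold limit, and the call was lost without wild-type replicate 1 or 3 or knockout replicate 2 at day 1 (log2FC −1.05 to −0.77 over all alternatives), and when libraries were scaled to an equal median, which moved the median of all genes at day 1 from −0.13 to 0.04. *Meg3* and *Rian* were also lower in knockout cells before day 3, under 2-fold on the log2(TPM + 1) scale. The values were −0.78 ± 0.15 (SE; limma, adjusted p = 0.00582) at day 0 and −0.99 at day 1 for *Meg3*, and −0.76 and −0.87 for *Rian*. Mean TPM of *Meg3* in knockout cells at day 1 was 0.468 times that in wild-type cells. After 3 days *Meg3* was at −0.13, *Rian* at 0.10 and *Dlk1* at 0.28, none with an adjusted p under 0.05, and the libraries of *Meg3* and *Rian* overlapped. *Grb10* was higher in knockout cells at day 0, by 0.99 ± 0.11 (SE; limma, adjusted p = 8.92e-05), and at day 1, by 0.69. *Peg10* was lower at both days, at −0.60 and −0.67.

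At day 3, *Igf2*, *Ascl2* and *Plagl1* were called higher in knockout cells. The difference was 1.20 ± 0.21 (SE; limma, adjusted p = 0.00293) for *Igf2*, 1.83 ± 0.41 (SE; limma, adjusted p = 0.0129) for *Ascl2* and 1.05 ± 0.17 (SE; limma, adjusted p = 0.00127) for *Plagl1*. *Igf2* and *Ascl2* lost the call with a pseudocount of 0.1, *Igf2* also when the libraries of the comparison were fitted alone, and *Plagl1* without knockout replicate 3 at day 3 (0.95). *Mest* (0.95), *Phlda2* (0.89), *Peg10* (0.85), *Cdkn1c* (0.73) and *Slc38a4* (0.47) were higher with an adjusted p under 0.05 and under 2-fold. Without knockout replicate 1 at day 3, 4 were called higher and 0 lower, with 154 and 141 over all genes. Over all libraries left out in turn the number of calls was 2 to 5, the 5 being without wild-type replicate 3.

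**Figure D3:**
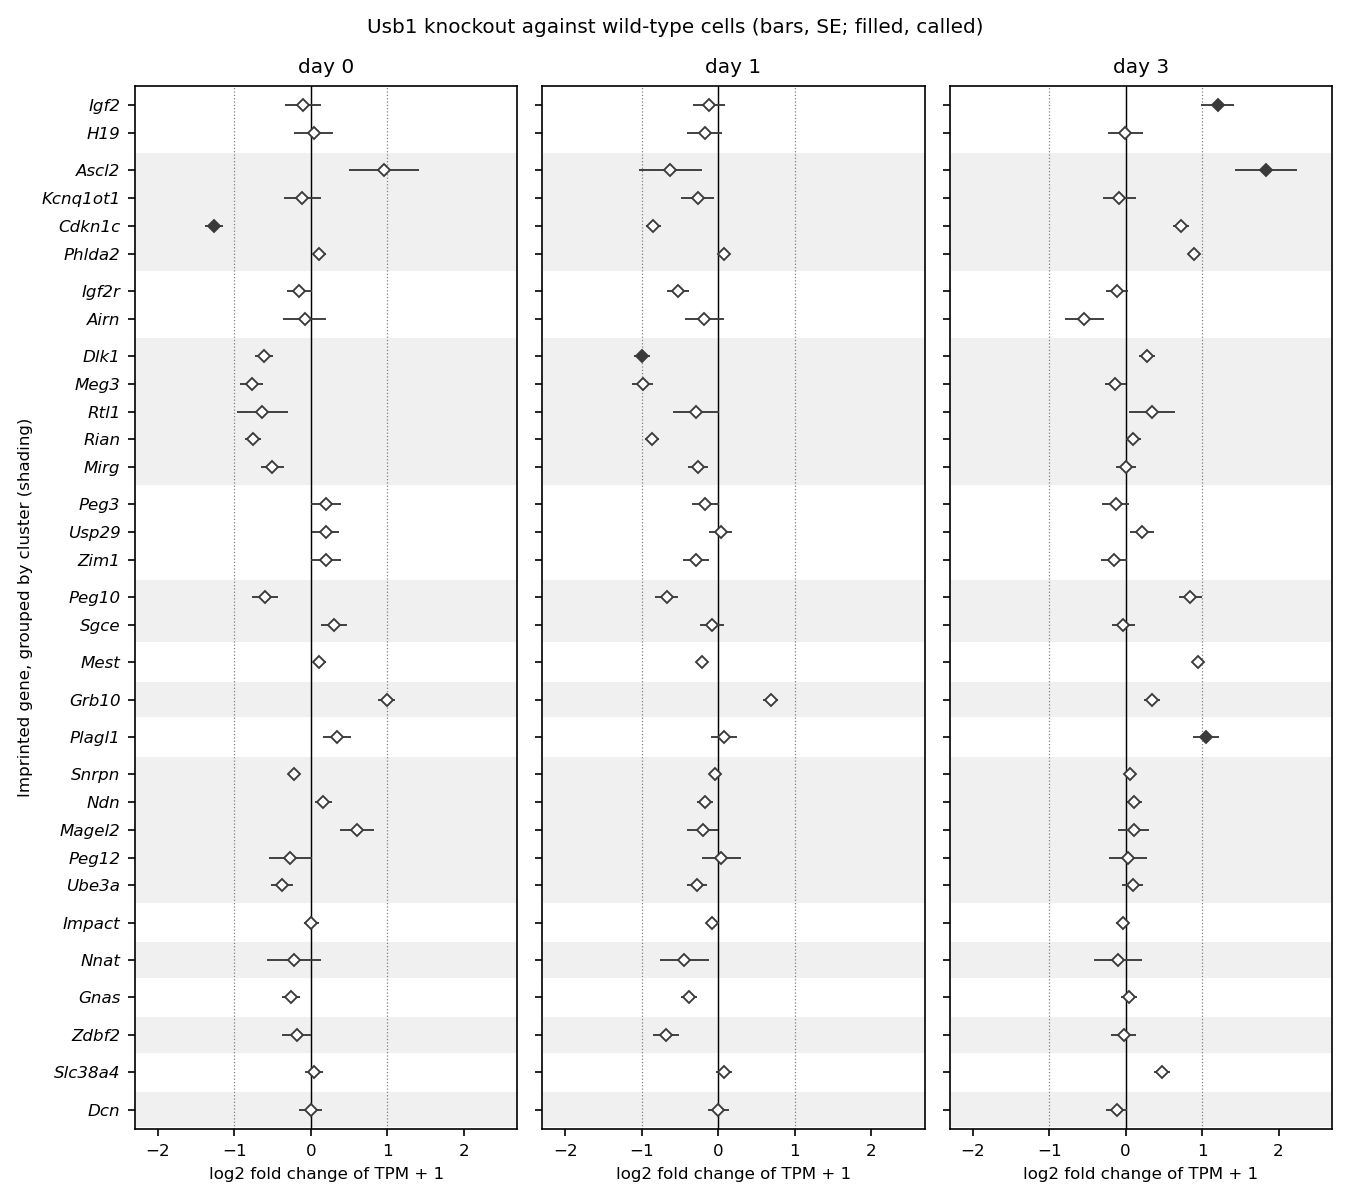
Log2 fold change of TPM + 1 (x axis) in *Usb1* knockout against wild-type cells for the 32 imprinted genes in the fit (y axis, shading by cluster) at day 0, 1 and 3. Bars are SE, filled points are called genes and dotted lines mark a 2-fold change. *Cdkn1c* at day 0 and *Dlk1* at day 1 lie to the left, and *Igf2*, *Ascl2* and *Plagl1* at day 3 to the right.

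Whether the response to RA itself differed between the genotypes was tested as an interaction. At day 1, limma called 0 of 32 imprinted genes in either direction, against 0.187% of all genes with a more positive and 0.672% with a more negative response in knockout cells. At an unadjusted p under 0.05 there were 1 and 5, and voom on recovered reads also called 0, with 53 and 225 over all genes. By day 3, 3 were called with a more positive response and 0 with a more negative one, against 1.17% and 1.25% of all genes. Voom called 2 and 0, with 246 and 448 over all genes. At an unadjusted p under 0.05 there were 14 and 1 at day 3. The share of all genes at an unadjusted p is not given here for either day. The 3 genes called by limma were *Cdkn1c* at 2.00 ± 0.15 (SE; limma, adjusted p = 1.12e-05), *Peg10* at 1.45 ± 0.23 (SE; limma, adjusted p = 0.0021) and *Igf2* at 1.30 ± 0.32 (SE; limma, adjusted p = 0.0285). Without the 5 genes that reached 1 TPM at day 3 alone, *Igf2* among them, 2 of 27 were called with a more positive response. The call of *Igf2* was lost in 10 of 20 alternatives, and 6 of these 10 left out 1 library and gave 1.16 to 1.28. The 20 include the adjusted p alone, which cannot lose a call. *Dlk1* (0.89), *Rian* (0.86), *Mest* (0.84) and *Phlda2* (0.78) had a more positive response in knockout cells, and *Grb10* (−0.65) a less positive one, each with an adjusted p under 0.05 and under 2-fold. With the 3 called genes these make 8 of 32, where 6.15% of all genes had an adjusted p under 0.05. Equal median scaling moved the calls over all genes from 41 more positive and 147 more negative to 48 and 95 at day 1 and from 256 and 273 to 187 and 321 at day 3, with 0 and 0 and then 3 and 0 imprinted genes called. Without wild-type replicate 1 at day 0, 6 were called more positive and 0 more negative at day 3, with 209 and 144 over all genes. At day 1 that gave 0 and 0, with 43 and 86 over all genes. Without knockout replicate 1 at day 3 there were 3 and 0 at day 3, with 318 and 252 over all genes. *Slc38a4* was at 0.43 (limma, adjusted p = 0.121) and *Ascl2* at 0.88 (limma, adjusted p = 0.427).

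Genes that maintain imprints and DNA methylation were followed in a list of 18, all of them in the fit. After 3 days, 2 were called higher and 8 lower in wild-type cells, and 2 higher and 7 lower in knockout cells, set against the shares of all genes given above (16.1% and 9.68%, 13.8% and 8.04%). *Zfp57* averaged 959 ± 90.6 TPM (SD, n = 2) without RA and 148 ± 6.97 TPM (SD, n = 3) after 3 days in wild-type cells, with log2FC of −2.68 ± 0.09 (SE; limma, adjusted p = 4.12e-12). In knockout cells it averaged 724 ± 11.1 and 175 ± 14.2 TPM (SD, n = 3 each), with log2FC of −2.04. *Trim28* was called lower at −1.52 and −1.10. Of the enzymes that oxidise methylcytosine, *Tet1* (−4.27 and −3.49) and *Tet2* (−2.62 and −2.14) fell and *Tet3* (2.16 and 2.04) rose. Of the genes of de novo methylation, *Dnmt3a* rose by 1.25 and 1.54, *Dnmt3b* fell at −1.23 and −1.43, and *Dnmt3l* fell in wild-type cells at −1.02, while *Dnmt1*, the maintenance methyltransferase gene, was at −0.48 and −0.43, under 2-fold.

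Between the genotypes, *Dnmt3l*, a cofactor of de novo methylation, averaged 73.4 ± 8.19 TPM (SD, n = 2) in wild-type cells without RA and 15.7 ± 0.301 TPM (SD, n = 3) in the knockout, with log2FC of −2.15 ± 0.12 (SE; limma, adjusted p = 1.67e-07). It was also called lower in knockout cells at day 1 (−1.20) and day 3 (−1.37). *Dppa3*, known to protect methylation in the early embryo, was called higher in knockout cells at day 0 (2.32) and day 1 (1.37), with a mean of 4.63 ± 0.90 TPM (SD, n = 3) in the knockout without RA, and fell there by day 3 (−2.14). Methylation was not measured in these libraries, and the part of these genes in the levels of imprinted genes was not tested.

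**Figure D4:**
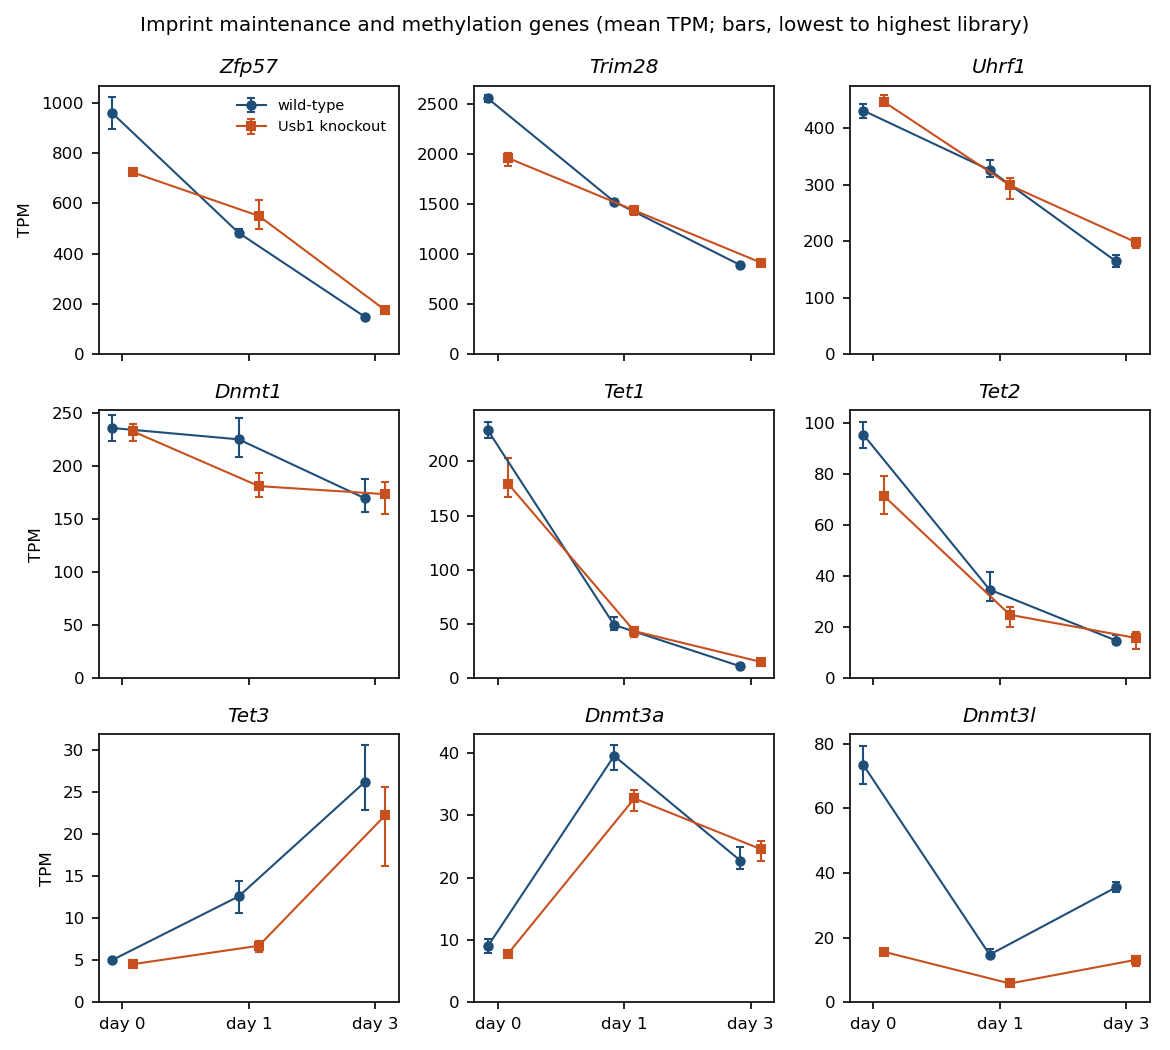
Mean TPM (y axis) of 9 imprint maintenance and methylation genes at day 0, 1 and 3 (x axis, evenly spaced) in wild-type (blue circles) and *Usb1* knockout cells (orange squares). Bars span the lowest to the highest library. *Zfp57*, *Trim28*, *Uhrf1*, *Tet1* and *Tet2* decline to day 3, *Tet3* rises, *Dnmt3a* peaks at day 1 and *Dnmt3l* is lower in *Usb1* knockout cells throughout.

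A further list of 43 imprinted genes, of which 35 were in the fit, was also followed. At day 3, 11 were called higher and 1 lower in wild-type cells, against 16.1% and 9.68% of all genes, and 13 higher and 1 lower in knockout cells, against 13.8% and 8.04%. Without *Slc22a3* and *Klf14*, which reached 1 TPM at day 3 alone, there were 10 higher and 1 lower in wild-type cells and 11 and 1 in knockout cells. Their median log2FC was 0.55 and 0.61, and 0.10 and 0.03 over all genes. *Calcr*, the calcitonin receptor gene, rose by 2.20 ± 0.26 (SE; limma, adjusted p = 4.74e-06) in wild-type and 3.83 ± 0.23 (SE; limma, adjusted p = 3.29e-09) in knockout cells, and it was higher in the knockout at day 3, by 1.13. In the interaction at day 3, *Calcr* (1.63) and *Klf14* (1.05) were called, *Klf14* having entered the fit through the knockout libraries of day 3, where it is high. *Ddc* (−0.64) and *Nap1l4* (0.36) had an adjusted p under 0.05 under 2-fold, with *Ddc* less positive in the knockout. *Phactr2* rose by 1.95 and 2.17 and *Osbpl5* by 1.82 and 2.37. *Ddc*, which encodes an enzyme of dopamine synthesis, rose by 2.00 and 1.36, and *Gpr1* was called lower at −2.05 and −1.15.

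Markers of other cell types moved at day 3 too. All 6 pluripotency genes were called lower and all 6 RA targets higher in both genotypes. The pluripotency genes summed to 329 ± 21.6 TPM in wild-type and 541 ± 34.3 TPM in knockout cells at day 3 (SD, n = 3 each), with *Nanog* and *Esrrb* called higher in the knockout. *Klf4*, of the same list, was lower there, at 58 ± 0.819 TPM in the wild type and 32.5 ± 2.84 TPM in the knockout (SD, n = 3 each), with no overlap. The RA targets summed to 1154 ± 31.3 and 594 ± 21.7 TPM at day 1 and 911 ± 78.1 and 569 ± 24.3 TPM at day 3 in wild-type and knockout cells (SD, n = 3 each), and 3 of 6 at day 1 and 1 of 6 at day 3 were called lower in the knockout, against 1.76% and 0.773% of all genes. All 10 markers of extraembryonic endoderm were called higher at day 3 in both genotypes, of which *Sox17*, *Afp* and *Ttr* reached 1 TPM at day 3 alone and so entered the fit through that day. In wild-type cells their sum was 220.0 ± 9.2 TPM without RA (SD, n = 2), increasing to 4174 ± 309 TPM by day 3 (SD, n = 3). The knockout line had 135 ± 13.9 and 1776 ± 256 TPM (SD, n = 3 each), and *Col4a1* was the most abundant at day 3. At that day 7 of the 10 were called lower in the knockout, against 0.773% of all genes.

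Of 10 fibroblast markers, 7 were in the fit. At day 3, 6 were called higher in each genotype, and *Thy1* was called lower in wild-type cells. *Col1a2* and *Col3a1* entered the fit through day 3 alone, and without them 4 were higher in each genotype. Their sum was 77.8 ± 6.14 TPM in wild-type and 124 ± 8.16 TPM in knockout cells (SD, n = 3 each), led by *Col1a1*, while *Lum*, *Postn* and *S100a4* were at or near 0. Of 10 trophoblast markers, 7 were in the fit and 5 were called higher in each genotype, and *Tfap2c* was called lower in wild-type cells. *Hand1*, *Plac1* and *Krt7* reached 1 TPM at day 3 alone, and without them 2 were higher in each genotype. These 2 include *Cdx2*, which before day 3 passed 1 TPM in 1 wild-type library only (1.85 TPM) and so also entered the fit through day 3. Their sum was 129.8 ± 7.85 and 206 ± 5.06 TPM (SD, n = 3 each), led by *Gata3*, while *Prl3d1* and *Tpbpa* were listed at 0 in every library and *Elf5* was near 0. Of 8 neural markers, 5 were in the fit. *Nes* was called higher and *Tubb3* and *Sox1* lower at day 3 in each genotype, and the list summed to 108 ± 5.49 and 147 ± 11 TPM (SD, n = 3 each), most of it *Nes*. At day 3 the sums of endoderm markers and RA targets were lower in the knockout libraries. The fibroblast, trophoblast, neural and pluripotency sums were higher there. Not every listed gene moved with its sum. Knockout libraries spanned 130 to 148 TPM for the RA target *Crabp2*, above the wild-type span of 73.5 to 101 TPM. The endoderm marker *Afp* was also slightly higher in the knockout (3.795 to 4.26 TPM, against 3.37 to 3.79 TPM). The trophoblast marker *Cdx2* was lower, spanning 3.67 to 5.34 TPM against 7.20 to 8.98 TPM. *Cyp26a1*, the most abundant RA target in wild-type libraries, averaged 402 TPM against 88.9 TPM in the knockout. Gene by gene, 1 of 7 fibroblast, 2 of 7 trophoblast, 0 of 5 neural and 2 of 6 pluripotency markers were called higher in the knockout at day 3 by limma, against 0.521% of all genes. The part of these cell types in the levels of imprinted genes was not tested.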

How the data were processed

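Bulk RNA-seq of R1/E mESCs was deposited by the authors as 1 table of TPM, computed, per the methods of the study, from mapped reads and gene lengths. HISAT2 2.1.0, StringTie 1.3.6 and the build GRCm38.p6 are named in the submitters' processing notes, and strandedness is not given in the sources used here. All 17 columns matched a library and 0 were left unused. Reads were recovered from TPM and GENCODE M21 exon lengths, and 95.9% to 96.7% of values per library came out whole within 0.01.

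TPM was compared as log2(TPM + 1) with limma 3.58.1 (R 4.3.3), with a variance trend and the means of the 6 groups, and Benjamini-Hochberg adjustment within each comparison. The fit was tested on simulated data. Tables and figures used pandas 2.3.3, numpy 2.4.6 and matplotlib 3.10.9 under Python 3.11.15. The imprinted genes and the other lists were chosen with earlier results of these data known. Named were all 33 genes, the called genes of the other imprinted and maintenance lists with the 3 largest rises and falls, and up to 2 of each other list; further list genes (*Trim28*, *Dnmt1*, *Uhrf1*, *Dnmt3b*, those at 0 or lower) were chosen after their values were seen. The replicates are independent biological replicates per the study's methods. Alternatives were other pseudocounts, filters, scalings, a fit on recovered reads, the libraries of each comparison alone, a replicate block and leaving out each library in turn. Intervals and limits on 0 reads cover counting error only.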

Additional observations from a re-analysis of the deposited data

Results flagged for a closer look

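The response to RA at day 3 differed between the genotypes in 8 imprinted genes, by the interaction term of limma at an adjusted p under 0.05, which 6.15% of all genes tested also had. The difference in log2 fold change, knockout minus wild type, was 2.00 for *Cdkn1c*, 1.45 for *Peg10*, 1.30 for *Igf2*, 0.89 for *Dlk1*, 0.86 for *Rian*, 0.84 for *Mest*, 0.78 for *Phlda2* and −0.65 for *Grb10*. Of these, *Cdkn1c*, *Peg10* and *Igf2* also passed the 2-fold minimum, *Igf2* having entered the fit through day 3, where it is high. *Cdkn1c* fell in wild-type and rose in knockout cells, *Phlda2* fell in both, and *Peg10*, *Igf2*, *Dlk1*, *Mest* and *Grb10* rose in both. Some of the genotypes' levels already differed without RA. Knockout against wild type at day 0 was −1.27 for *Cdkn1c*, −0.76 for *Rian*, −0.61 for *Dlk1*, −0.60 for *Peg10* and 0.99 for *Grb10*, each with an adjusted p under 0.05. *Igf2*, *Mest* and *Phlda2* had no adjusted p under 0.05 at day 0. At day 3 the levels of *Rian* (0.10), *Dlk1* (0.28) and *Grb10* (0.34) had no adjusted p under 0.05. The explanation of these differences was not tested.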

How the results depend on the processing

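Of 106 called values followed through 1572 alternative values, 1534 kept their direction and their side of the threshold, 38 lost the call and 0 reversed. The 1572 include the adjusted p alone, once for each of the 106 values. That setting restates the main value and could not lose a call. By adjusted p alone, without the 2-fold minimum, 18 imprinted genes passed in wild-type cells and 13 in knockout cells at day 1, 8, 9 and 8 between the genotypes at day 0, 1 and 3, and 8 in the interaction at day 3. Between the genotypes at day 0, a pseudocount of 0.1 called 3, equal median scaling, quantile normalization and voom on recovered reads called 2 each, and the libraries of the comparison alone called 0. At day 1 a pseudocount of 0.1 called 2, and equal median scaling, quantile normalization and voom called 0. At day 3 a pseudocount of 0.1 called 1. Leaving out each library in turn gave 8 to 10 calls in wild-type cells and 6 to 7 in knockout cells at day 1, 19 to 20 and 20 to 23 at day 3, and 20 to 21 and 22 to 23 from day 1 to day 3. Between the genotypes it gave 1 to 3 at day 0 (3 without wild-type replicate 2, 2 without knockout replicate 2), 0 to 1 at day 1 (0 without wild-type replicate 1 or 3) and 2 to 5 at day 3 (5 without wild-type replicate 3). The interaction had 0 to 1 at day 1 (1 without wild-type replicate 2 at day 0) and 2 to 6 at day 3 (6 without wild-type replicate 1 at day 0). Where the counts over all genes are not given, these numbers are not read as particular to imprinted genes. The causes were not tested.

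With the replicate block, 10 and 20 genes were called in wild-type cells and 6 and 21 in knockout cells at day 1 and day 3, 21 and 22 from day 1 to day 3, 1, 1 and 3 between the genotypes, and 0 and 3 in the interaction. Same-numbered libraries correlated at −0.13 to 0.124 in their deviations from the group means, and others at −0.124 to 0.106. Correlations over all genes cannot exclude that same-numbered libraries were processed together.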
